A study of Mus musculus with 15 samples.

Results

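The genes described here are the 10 genes of cystine uptake and glutathione synthesis and use: *Slc7a11*, *Cth*, *Cbs*, *Gclc*, *Gclm*, *Gss*, *Ggct*, *Gsr*, *Gpx1* and *Gpx4*. They were chosen by name for their known roles, but with earlier results of these data known, so the choice was not blind to their values. All 10 were found among the 20910 genes of the table of cultured cells and the 25038 genes of the table of mouse tissue. RNA was sequenced in 15 libraries. Cultured mouse retinal pigment epithelium cells (mRPE) gave 4 WT libraries, 3 libraries of the *Prom1*-KO line KO22 and 2 of the *Prom1*-KO line KO26. The mRPE cells were pooled from young adult C57BL/6J mice and immortalised with a lentivirus carrying the papillomavirus genes E6 and E7. The *Prom1*-KO lines also received lentiviral Cas9 with puromycin selection and then a guide RNA against exon 5 of *Prom1*, and whether the WT libraries carry Cas9 or a scrambled guide is not given in the sources used here. RPE with choroid from mice gave 3 WT libraries and 3 libraries labelled Prom1_KO, from *Prom1* fl/fl mice with an *RPE65*-driven, tamoxifen-induced Cre. The ages of these mice, and whether the WT mice were given tamoxifen, are not given in the sources used here. Each mRPE line is a single edited line, and no source says that the libraries of a line came from separate cultures, so the p-values measure only the spread between these libraries.

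Glutathione is the main small thiol that keeps animal cells reduced. Cystine enters through the antiporter system xc-, made of the light chain *Slc7a11* and the heavy chain *Slc3a2*, and cysteine is also made inside the cell by *Cbs* and *Cth*. Glutamate-cysteine ligase (*Gclc* and *Gclm*) and then *Gss* build glutathione, the peroxidases *Gpx1* and *Gpx4* spend it on peroxides, *Gsr* restores it with NADPH, and *Ggct* acts on its gamma-glutamyl breakdown products. In the RPE, which faces light and the lipids of photoreceptor outer segments every day, glutathione is known as a major defence against oxidation.

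The mRPE libraries held 8076188 to 27537863 counts and the RPE/choroid libraries 48154444 to 61766179. Library names divide the mRPE libraries into series 8995 (1 library each of WT, KO22 and KO26) and series 9262 (3 WT, 2 KO22 and 1 KO26), which the study treats as sequencing batches. *Prom1* itself is not analysed here in mRPE. In RPE/choroid, *Prom1* was at 48.7, 49.6 and 53.3 CPM (the usual count scaled by library depth, here with TMM factors) in the WT libraries and at 49.9, 48.1 and 35.5 CPM in the libraries labelled Prom1_KO, a log2 fold change of -0.18 with an edgeR quasi-likelihood adjusted p of 0.824, so this gene does not separate the labels. Library 3 of that group stood apart, with 84.2% of its counts on mitochondrially encoded genes against 64.9% to 71.3% in the other 5 RPE/choroid libraries. Of 15 RPE marker genes, only *Best1*, *Mitf* and *Pmel* were measured in mRPE, and the other 12, *Rpe65* and *Rlbp1* among them, are not analysed here in those cells. Summed, these 3 markers were at 8.18 to 12.8 CPM in WT, 15.5 to 38.7 CPM in KO22 and 5.38 and 9.14 CPM in KO26, while *Pmel* alone was lower in KO22 (1.21 to 1.78 CPM) than in WT (1.92 to 2.26 CPM). The summed level of 6 fibroblast and mural markers was 8014 to 10842 CPM in WT, 4147 to 6896 CPM in KO22 and 12370 and 13393 CPM in KO26, and its members did not move together. From WT to KO22 the mean of *Col1a1* went from 4119 to 1529 CPM and that of *Dcn* from 828 to 1192 CPM, and in KO26 *Col1a1* (6866 CPM) and *Col3a1* were above WT while *Pdgfra* (780 against 1419 CPM) and *Dcn* (615 CPM) were below it. The 5 of 7 endothelial markers that were measured summed to 153 to 236 CPM in WT, 3.49 to 5.40 CPM in KO22 and 56.7 and 74.1 CPM in KO26, and nearly all of the WT sum was *Kdr* (mean 177 CPM in WT and 2.21 CPM in KO22). *Tek* was also lower in KO22, *Pecam1* was level (0.438 and 0.370 CPM), and the means of *Vwf* and *Plvap* were higher, all near or under 1 CPM. These marker levels move with the lines, their part in the results that follow was not tested, and in bulk RNA fewer cells of a type and less RNA per cell cannot be told apart.

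The stretches of DNA just before 3 of the genes are shown because 2 short motifs linked in general to this pathway were searched in all 10. The first motif, TGACNNNGC, is the core of the antioxidant response element that NRF2 (encoded by *Nfe2l2*) binds with small MAF proteins, and the second, TGATGNAA, is the C/EBP-ATF response element read by ATF4. Both strands were searched over the 250 bases before the start of the GENCODE canonical transcript on GRCm39, and no match of one motif overlapped a match of the other. The windows lie at chr3:50398064-50398313 on the minus strand, chr3:122038876-122039125 on the plus strand and chr6:54969943-54970192 on the minus strand. They are written 5′ to 3′ along the gene, with the matches in capitals.
Slc7a11: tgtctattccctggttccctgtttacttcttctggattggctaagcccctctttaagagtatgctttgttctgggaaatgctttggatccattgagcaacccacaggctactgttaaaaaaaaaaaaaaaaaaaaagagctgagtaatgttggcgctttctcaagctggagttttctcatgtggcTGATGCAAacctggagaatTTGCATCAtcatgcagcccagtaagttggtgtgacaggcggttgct
Gclm: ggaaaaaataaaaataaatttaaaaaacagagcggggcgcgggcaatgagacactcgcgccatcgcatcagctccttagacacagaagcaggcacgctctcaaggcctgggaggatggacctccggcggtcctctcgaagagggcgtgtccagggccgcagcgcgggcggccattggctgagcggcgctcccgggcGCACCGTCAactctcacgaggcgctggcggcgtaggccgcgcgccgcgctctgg
Ggct: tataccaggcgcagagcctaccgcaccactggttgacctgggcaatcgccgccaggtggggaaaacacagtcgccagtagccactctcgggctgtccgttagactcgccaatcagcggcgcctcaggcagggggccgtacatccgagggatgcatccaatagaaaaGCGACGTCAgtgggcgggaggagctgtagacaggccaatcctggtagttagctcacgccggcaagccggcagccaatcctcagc

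The window of *Slc7a11* held TGATGNAA on both strands, at 65 to 58 and at 46 to 39 bases before the start. No other member's window held this motif, which was found in 3.39% of the windows of 21770 protein-coding genes. TGACNNNGC was found on the opposite strand in *Gclm*, at 54 to 46 bases before the start, and in *Ggct*, at 84 to 76 bases before it, and in 9.69% of all windows. The windows of the other 7 members held neither set of letters. A match is a description of these letters and not a measured binding site, and a window without a match says nothing about sites elsewhere.

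The first comparison asked how these genes differed between WT mRPE and KO22, over 7 libraries with the library series as a term. *Slc7a11*, *Cth*, *Gsr*, *Ggct* and *Gclc* were higher in KO22 and passed both limits (an edgeR quasi-likelihood adjusted p below 0.05, and a log2 fold change past 1.2 in size), and none of the 10 was lower past them. Over all 20455 genes tested, 11.4% passed both limits as higher and 13.8% as lower. At the adjusted p alone, 7 of the 10 were higher, against 26.9% of all genes. The median log2 fold change of the 10 genes was 1.18, against -0.03 over all genes tested. Every KO22 library lay above every WT library for 6 of the 10, against 24.8% of all genes. All 10 passed the filter on low counts in each comparison, so none was left out of these counts.

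**Figure D1:**
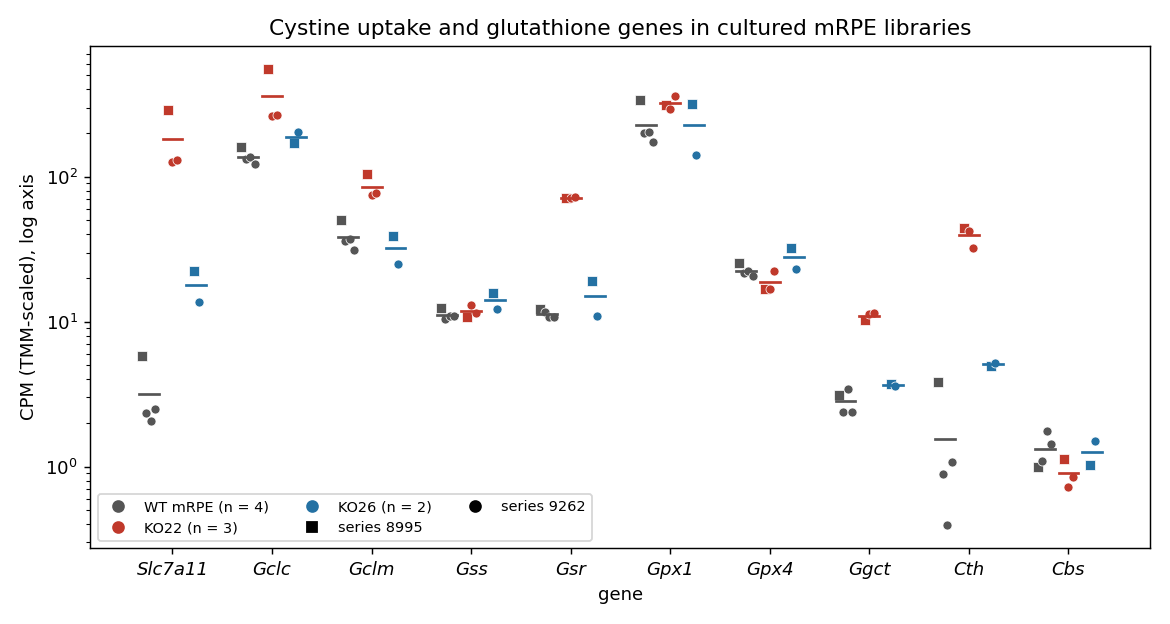
Level of each gene in each of the 9 mRPE libraries, in TMM-scaled CPM on a log axis; each point is a library, squares are series 8995, circles are series 9262, and bars are group means. The KO22 points of *Slc7a11*, *Cth*, *Gsr*, *Ggct*, *Gclc* and *Gclm* lie above all WT points, while those of *Gss*, *Gpx1*, *Gpx4* and *Cbs* overlap them.

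*Slc7a11*, the transport subunit of system xc-, was at 5.76, 2.33, 2.06 and 2.51 CPM in the WT libraries and at 288, 127 and 130 CPM in the KO22 libraries. The lowest KO22 library lay far above the highest WT library, and within both lines the series 8995 library was the highest. The log2 fold change was 5.73 (SE 0.12, edgeR adjusted p = 3.48e-08), or 53.2-fold, and ranked 107 among the 20455 genes by size upwards. The study labelled *Slc7a11* on these same libraries, so its direction here is not independent evidence. Separately, the study reported *Slc7a11* as higher by qPCR in *Prom1*-KO mRPE cells. The gene spans chr3:49846975-50398070 on the minus strand (GRCm39, GENCODE M39). Its partner *Slc3a2*, the heavy chain that carries the transporter to the membrane, gave no call. *Slc3a2* was at 125 ± 9.98 CPM (SD, n = 4) in WT and 129 ± 6.57 CPM (n = 3) in KO22, with overlapping libraries and a log2 fold change of 0.03 (adjusted p = 0.81).

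Of the pair that makes cysteine from homocysteine, *Cth* rose and *Cbs* gave no call. *Cth*, cystathionine gamma-lyase, which releases cysteine from cystathionine, was at 3.85, 0.891, 0.393 and 1.08 CPM in WT and at 44.0, 42.4 and 32.1 CPM in KO22. All 3 KO22 libraries lay above the WT libraries, of which that of series 8995 was the highest. Its log2 fold change was 4.69 (SE 0.38, adjusted p = 1.15e-05), a 25.8-fold difference, and the WT level rests on 97, 13, 4 and 15 counts. *Cbs*, cystathionine beta-synthase, which makes the cystathionine, stayed near 1 CPM, at 0.993 to 1.77 CPM in WT and 0.723 to 1.12 CPM in KO22. The 2 ranges overlapped, on 11 to 25 counts a library, and the log2 fold change of -0.54 had an interval of -1.24 to 0.17 (1.96 standard errors either side, adjusted p = 0.236).

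Among the enzymes that build glutathione, both subunits of the ligase rose past the adjusted p and *Gss* did not. *Gclc*, the catalytic subunit, was at 161, 132, 136 and 122 CPM in WT and at 556, 264 and 269 CPM in KO22. The KO22 library of series 8995 was well above the other two, and all 3 were above WT. The log2 fold change was 1.26 (SE 0.15, adjusted p = 0.000122), just over the fold limit. Without the KO22 library of series 8995 it was 1.05, and without the WT library of that series 1.02, both under that limit. *Gclm*, the modifier subunit that makes the ligase more efficient, was at 50.1, 35.9, 36.9 and 31.3 CPM in WT and at 104, 74.4 and 76.7 CPM in KO22. These groups did not overlap either, and the log2 fold change of 1.10 (SE 0.10, adjusted p = 2.81e-05) was just under the limit. *Gss*, glutathione synthetase, which adds glycine, was at 10.4 to 12.5 CPM in WT and 10.8 to 13.1 CPM in KO22. Its libraries were intermixed, and the log2 fold change of 0.07 had an interval of -0.23 to 0.37 (adjusted p = 0.72).

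*Gsr*, glutathione reductase, which turns oxidised glutathione back with NADPH, was at 12.2, 11.7, 10.8 and 10.7 CPM in WT and at 71.5, 70.9 and 72.4 CPM in KO22. The libraries within each line lay close together and the lines lay far apart. The log2 fold change was 2.65 (SE 0.11, adjusted p = 3.72e-07), or 6.27-fold. *Ggct*, gamma-glutamylcyclotransferase, which frees 5-oxoproline from gamma-glutamyl amino acids, was at 3.14, 2.40, 3.44 and 2.37 CPM in WT and at 10.3, 11.3 and 11.5 CPM in KO22. Again no library of one line reached the other, with a log2 fold change of 1.96 (SE 0.20, adjusted p = 4.27e-05).

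The 2 peroxidases gave no call at both limits. *Gpx1*, the main cytosolic glutathione peroxidase, was at 336, 201, 203 and 173 CPM in WT and at 314, 294 and 362 CPM in KO22. The WT library of series 8995 lay among the KO22 libraries, while the other 3 WT libraries lay below them. The log2 fold change of 0.52 (SE 0.17) passed the adjusted p (0.0298) and not the fold limit. Within series 9262 the log2 ratio was 0.77, and within series 8995, with 1 library of each, it was -0.10, so the direction was not shared by both series. *Gpx4*, which reduces lipid peroxides in membranes and is known for holding back ferroptosis, was at 20.6 to 25.6 CPM in WT and 16.7 to 22.5 CPM in KO22. The ranges overlapped, and its log2 fold change was -0.27 (interval -0.58 to 0.03, adjusted p = 0.165).

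Per kilobase of exon, summed over all annotated exons of a gene, the WT order of levels ran from *Gpx1* (158 CPM per kilobase) through *Gclc* (22.0), *Gpx4* (13.1), *Gclm* (4.84), *Gsr* (1.64), *Gss* (1.62), *Ggct* (0.351), *Cth* (0.321) and *Slc7a11* (0.204) to *Cbs* (0.117). *Gsr* and *Gss* overlapped in range, as did each neighbouring pair from *Ggct* down to *Cbs*. In KO22 *Slc7a11* was at rank 3 of the 10, at 11.7 CPM per kilobase, in a run of overlapping neighbours with *Gpx4* (10.8), *Gclm* (10.7) and *Gsr* (10.3). *Cth* followed at 8.16, and *Gss* (1.70), *Ggct* (1.37) and *Cbs* (0.0795) came last. In KO26 *Slc7a11* was at rank 7, at 1.16 CPM per kilobase, and overlapped *Cth* at 1.05.

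Whole chromosomes differed in their median log2 fold change between KO22 and WT, so each member was also set against the other genes of its own chromosome. The median was 0.60 on chromosome 8, which holds *Gsr*, 0.27 on chromosome 9 with *Gclc* and *Gpx1*, 0.11 on chromosome 3 with *Slc7a11*, *Gclm* and *Cth*, and 0.15 on chromosome 2 with *Gss*. It was -0.45 on chromosome 6 with *Ggct*, -0.54 on chromosome 10 with *Gpx4* and -0.04 on chromosome 17 with *Cbs*. Less these medians, *Slc7a11* was at 5.62, *Cth* at 4.58, *Ggct* at 2.41 and *Gsr* at 2.05, so 4 of the 5 stayed over the fold limit. *Gclc* was at 0.99 and fell under it, and *Gpx4* went from -0.27 to 0.27. The part of chromosome copy number in these values was not tested.

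**Figure D2:**
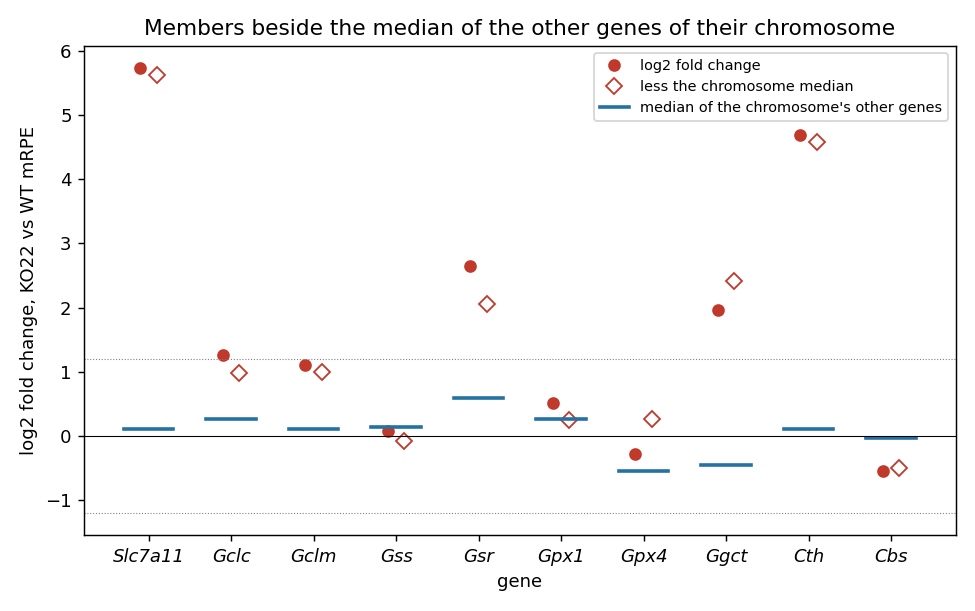
Log2 fold change of each gene in KO22 against WT mRPE (filled circles), the median of the other genes on its chromosome (blue bars) and the change less that median (diamonds); dotted lines mark log2 fold changes of 1.2 and -1.2. *Gsr* sits on the chromosome with the highest of these medians, 0.60, and *Gclc* drops below the dotted line once its chromosome's 0.27 is taken away.

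Within each library series the higher genes kept their direction. On the scale of log2(CPM + 0.5), the ratio of KO22 to WT for *Slc7a11* was 5.53 in series 8995 and 5.52 in series 9262. For *Gsr* the same ratios were 2.50 and 2.64, for *Ggct* 1.57 and 1.88, and for *Gclm* 1.05 and 1.11. They were further apart for *Cth*, at 3.35 and 4.87, and for *Gclc*, at 1.79 and 1.03. Series 8995 has 1 library of each line and so gives no test.

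The second comparison asked whether KO26, the other *Prom1*-KO line, differed from WT in these genes, in a fit over all 9 mRPE libraries. Both KO26 libraries are ones that the study called outliers after batch correction and set aside, and every KO26 value here rests on them. *Slc7a11* was the only member past both limits, and none was lower. Of 20737 genes tested, 1.21% passed both limits as higher and 0.719% as lower. The median log2 fold change of the 10 genes was 0.32, against 0.03 over all genes. Both KO26 libraries lay above all WT libraries for 4 of the 10, against 11.9% of all genes. KO22 and KO26 share the WT libraries, so the values of the lines are given side by side and their likeness is not a result.

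In KO26 *Slc7a11* was at 22.3 and 13.6 CPM, above every WT library and below every KO22 library. Its log2 fold change from WT was 2.27 (SE 0.16, adjusted p = 0.000678), or 4.82-fold. *Cth* was at 4.97 and 5.20 CPM, also above all 4 WT libraries, with a log2 fold change of 1.52 (SE 0.48, adjusted p = 0.112). That call depended on the fit: with DESeq2 the log2 fold change was 1.69 (adjusted p = 0.0151), and without the WT library of series 8995 it was 2.56 (edgeR adjusted p = 0.0117). Without the KO26 library of series 9262 it was 0.94. On the scale of log2(CPM + 0.5), the ratio of KO26 to WT for *Cth* was 0.33 in series 8995 and 2.15 in series 9262. *Slc3a2* was at 192 and 208 CPM, above the WT range of 112 to 136 CPM, and its log2 fold change of 0.65 (SE 0.13) passed the adjusted p (0.0214) and not the fold limit. *Gclm* was at 39.3 and 25 CPM, within or below the WT range, with a log2 fold change of -0.41 (adjusted p = 0.127). For *Gsr* the 2 libraries were 19.2 and 11 CPM, the first above all WT libraries and the second among them (log2 fold change 0.34, adjusted p = 0.334). *Gclc* at 172 and 203 CPM and *Ggct* at 3.71 and 3.59 CPM lay above the WT libraries by less than the test could call, with log2 fold changes of 0.37 (adjusted p = 0.382) and 0.36 (adjusted p = 0.453). *Gpx1* differed widely between the KO26 libraries, at 316 and 141 CPM, and the other 3 members, *Gss*, *Gpx4* and *Cbs*, had log2 fold changes between -0.03 and 0.30.

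The difference between the lines was tested directly in the same fit. *Slc7a11*, *Cth*, *Gsr*, *Ggct* and *Gclm* were higher in KO22 than in KO26 past both limits, and none was lower. Of all genes, 7.56% were higher past both limits and 10.7% lower. The adjusted p alone was passed by 7 members as higher, against 16.3% of all genes. Every KO22 library lay above both KO26 libraries for 6 of the 10 and below them for 1, against 23.4% and 24.6% of all genes. The log2 difference was 3.46 (SE 0.18) for *Slc7a11*, 3.13 (SE 0.50) for *Cth*, 2.30 (SE 0.20) for *Gsr*, 1.60 (SE 0.26) for *Ggct* and 1.51 (SE 0.14) for *Gclm*. *Gclc* (0.93, adjusted p = 0.0136) and *Gpx1* (0.72, adjusted p = 0.0488) passed the adjusted p and not the fold limit. *Gpx4* was lower in KO22 in every library, by a log2 difference of -0.53 that did not pass (adjusted p = 0.0679), while the median of the other genes on its chromosome was -0.55. Of the partner chain, *Slc3a2* was lower in KO22 than in KO26 by 0.62 on the log2 scale (a difference of -0.62, adjusted p = 0.00466, under the fold limit), with all KO22 libraries below both KO26 libraries.

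**Figure D3:**
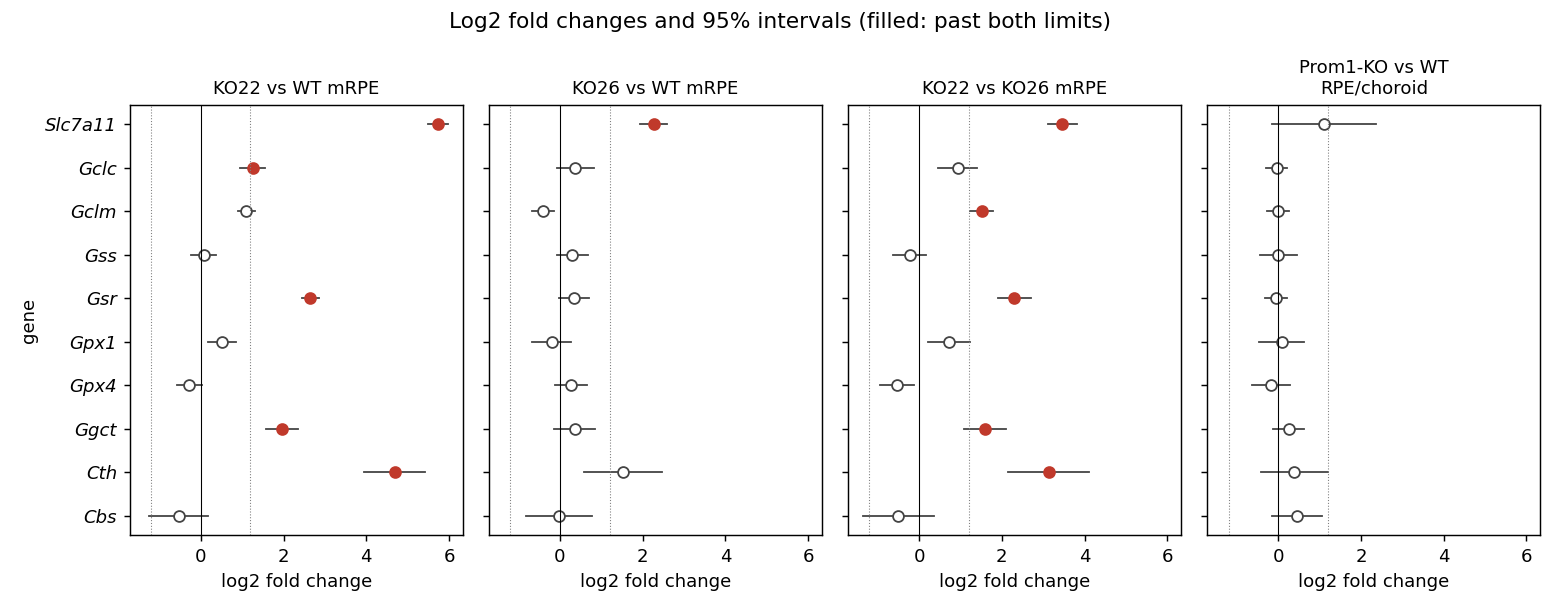
Log2 fold change of each gene in the 4 comparisons, with lines of 1.96 standard errors either side; filled points passed both limits and dotted lines mark log2 fold changes of 1.2 and -1.2. *Slc7a11* is the only filled point in KO26 against WT, and no point is filled in RPE/choroid, where its interval is the widest.

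The genes whose pattern was most like that of *Slc7a11* over the 9 mRPE libraries were *Nqo1*, *Kif24*, *Me2*, *Kif5c* and *Cep152*. Likeness was Pearson's r of log2 CPM less the mean of the library series, over 16372 genes, and it is a description only, since the points share their lines and libraries. It was 0.9995 for *Nqo1*, the NAD(P)H quinone dehydrogenase, and 0.997 for *Kif24*, 0.995 for *Me2*, 0.994 for *Kif5c* and 0.993 for *Cep152*. *Nqo1* was at 2.45 to 3.66 CPM in WT, at 45.7, 29.8 and 32.5 CPM in KO22 and at 9.0 and 7.29 CPM in KO26. As with *Slc7a11*, KO26 lay between the other lines with no overlap, and series 8995 was higher in each line.

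The other genes of the pathway came from lists written with earlier results of these data known, and each is given by its count. The lists can be read against the share of all genes past both limits in KO22, 11.4% higher and 13.8% lower. Of 6 further transporters of cystine and cysteine, none rose and *Ctns*, which exports cystine from lysosomes, fell by 1.57 on the log2 scale, from 18.7 to 22.6 CPM in WT to 5.62 to 7.76 CPM in KO22. Their median log2 fold change was -0.37. Of 16 genes of the methionine cycle and sulfur amino acid breakdown, 3 rose and 2 fell, with a median of -0.44. The 2 that fell were *Cdo1*, the dioxygenase that commits cysteine to breakdown, by 4.32 (adjusted p = 9.80e-07), and *Suox*, sulfite oxidase, by 2.37 (adjusted p = 3.16e-05). *Cdo1* was at 52.1 to 90.5 CPM in WT, 2.51 to 6.49 CPM in KO22 and 14.1 and 40.1 CPM in KO26, with no overlap between the lines. It also fell in KO26, by 1.79 (adjusted p = 0.00923), as the only gene of that list past both limits there, a call lost with no series term in the fit (-1.39, adjusted p = 0.163). *Mtrr*, which keeps methionine synthase active, rose in KO22 with a log2 fold change of 1.60.

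**Figure D4:**
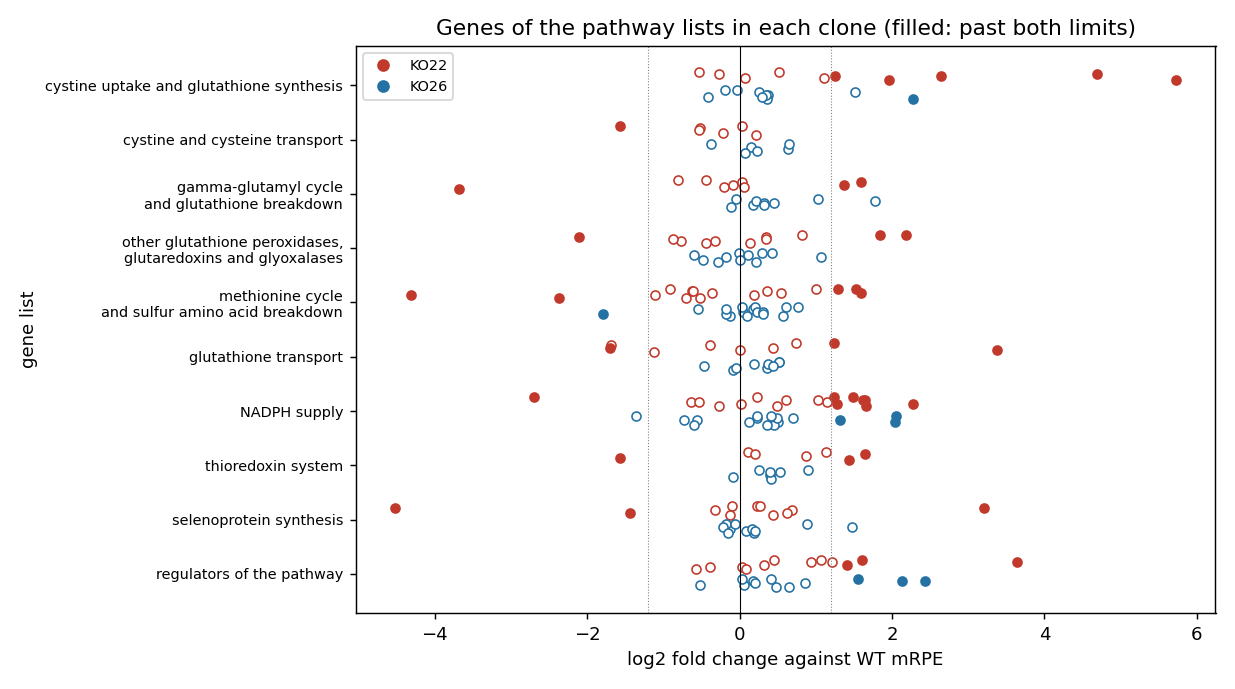
Log2 fold change against WT mRPE of each measured gene in the lists, with KO22 in red and KO26 in blue; filled points passed both limits and dotted lines mark 1.2 and -1.2. Red filled points lie on both sides in most lists, and blue filled points are 1 member (*Slc7a11*), 1 gene of sulfur amino acid breakdown (*Cdo1*), 3 of NADPH supply and 3 regulators.

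Among 9 genes of glutathione breakdown, *Chac1*, which cleaves glutathione itself, and *Lap3*, an aminopeptidase, rose in KO22 (log2 fold changes 1.59 and 1.37) and *Dpep1*, a dipeptidase that splits cysteinylglycine, fell by 3.69. The call of *Chac1* was lost without any 1 of the 3 WT and 2 KO22 libraries of series 9262, with log2 fold changes of 1.26 to 1.53 and adjusted p of up to 0.0774. *Chac1* was at 1.99 to 7.63 CPM in WT and 5.45 to 14.2 CPM in KO22, so these overlapped. Its KO26 libraries were above all of WT, at 10.3 and 17.7 CPM, though none of the 9 genes passed both limits in KO26. *Dpep1* was at 101 to 276 CPM in WT, 11.9 to 24.9 CPM in KO22 and 140 and 235 CPM in KO26, so only KO22 lay apart. Of 11 other peroxidases, glutaredoxins and glyoxalase genes, *Esd*, which hydrolyses S-formylglutathione, and *Prdx6*, a peroxiredoxin that uses glutathione, rose by 2.19 and 1.84 on the log2 scale and *Gpx3*, the secreted peroxidase, fell by 2.10. *Gpx3* was low throughout mRPE, at 1.11 to 4.23 CPM in WT and 0.519 to 0.776 CPM in KO22. Of 9 glutathione transport genes, 2 rose and 1 fell. The exporters *Abcc4* (log2 fold change 3.37) and *Abcc1* (1.24) rose in KO22, and *Abcc3* fell by 1.70. *Abcc3* was low, at 0.715 to 2.95 CPM in WT and 0.173 to 0.698 CPM in KO22, there on 2 to 12 counts. *Abcc4* was at 6.75 to 10.9 CPM in WT, 88.7 to 101 CPM in KO22 and 9.28 and 14.2 CPM in KO26, and *Abcc1* dropped under the fold limit in 5 alternatives, at 1.17 with edgeR's own count filter, 1.08 within series 9262, 1.05 less its chromosome's median, and 1.06 and 1.08 without the WT or the KO22 library of series 8995.

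Of 17 genes of NADPH supply, which *Gsr* draws on, 7 rose and 1 fell in KO22, and their median was 1.03 on the log2 scale. *Mthfd2*, a mitochondrial folate enzyme, rose by 2.28 on the log2 scale and *Me1*, the cytosolic malic enzyme, by 1.66, while *Me3*, a mitochondrial malic enzyme, fell by 2.69. In KO26, 3 rose, all of mitochondrial folate metabolism: *Aldh1l2* (log2 fold change 2.05), *Mthfd2* (2.04) and *Mthfd1l* (1.32). These KO26 calls were not stable. That of *Mthfd2* was lost without either KO26 library, any WT library of series 9262 or KO22 library 2 (adjusted p up to 0.299), and with no series term (0.079). *Aldh1l2* was at 0.95 without the KO26 library of series 9262 and had an adjusted p of 0.105 with no series term, and *Mthfd1l* was at 1.19, just under the fold limit, without that KO26 library. Of 7 thioredoxin genes, *Txn1* (1.65) and *Txnrd1* (1.43) rose in KO22 and *Txnip*, the thioredoxin inhibitor, fell by 1.57, and none passed both limits in KO26. Of 11 genes of selenoprotein synthesis, which the 2 peroxidases need, *Lrp8*, a receptor for selenoprotein P, rose in KO22 (log2 fold change 3.21), and *Selenop* itself and *Scly*, selenocysteine lyase, fell by 4.52 and 1.44. *Selenop* was at 189 to 488 CPM in WT, 11.8 to 15.3 CPM in KO22 and 176 and 337 CPM in KO26.

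Of 12 regulators of the pathway, 3 rose in each line and none fell past both limits. At the adjusted p alone, 7 were higher and 1 lower in KO22, against 26.9% and 26.1% of all genes. *Atf3* and *Asns*, both known targets of ATF4, rose in KO22 (log2 fold changes 3.65 and 1.61) and in KO26 (2.13 and 1.55). The WT level of *Atf3* was 0.206 to 0.785 CPM, on 3 to 18 counts. *Ddit3*, also an ATF4 target, was lower in KO22 (7.87 to 11.9 CPM) than in WT (13.2 to 17.4 CPM). Its KO26 libraries were at 22.9 and 23.6 CPM. In KO26 the call of *Atf3* was lost without any 1 of the 4 WT or 2 KO26 libraries (adjusted p 0.0526 to 0.0803), and that of *Asns* with no series term (adjusted p = 0.103). *Atf4* itself rose past both limits in KO22 (1.40, adjusted p = 0.000127), at 218 to 225 CPM against 61.9 to 130 CPM in WT, though less the median of its chromosome it was at 1.04, under the fold limit. In KO26 *Atf4* was at 121 and 220 CPM, overlapping WT (0.86, adjusted p = 0.0444, under the fold limit). *Trib3*, another ATF4 target, rose in KO26 (2.43, adjusted p = 0.0376) and gave 1.22 with an adjusted p of 0.0916 in KO22. Its KO26 call was lost without either KO26 library, any WT library of series 9262 or KO22 library 3 (adjusted p up to 0.151), and with no series term (0.0701). *Nfe2l2*, which encodes NRF2, was at 141 to 169 CPM in WT, 297 to 388 CPM in KO22 and 158 and 166 CPM in KO26. Its log2 fold change was 1.06 in KO22 (adjusted p = 0.000136, under the fold limit) and 0.04 in KO26 (adjusted p = 0.912), and the difference between the lines, 1.03, passed the adjusted p (0.000842). *Keap1*, whose product marks NRF2 for breakdown, gave 0.45 (adjusted p = 0.0136) in KO22 and 0.42 (adjusted p = 0.21) in KO26. The transcript levels of *Nfe2l2* and *Atf4* are not measures of their proteins.

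The last comparison set RPE/choroid libraries labelled Prom1_KO against WT, which addresses the same genes in tissue. None of the 10 members passed the adjusted p with edgeR, in either direction, and the libraries of the groups overlapped for each of them, where 6.71% of all genes lay wholly above and 7.89% wholly below. Over all 24926 genes tested, 0% passed both limits as higher and 0.189% as lower, and 0% and 0.193% at the adjusted p alone. At an unadjusted p under 0.05 the shares were 3.98% higher and 4.31% lower, and no member reached it. With DESeq2's test no member passed either. The median log2 fold change of the 10 was 0.04, against 0.01 over all genes.

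*Slc7a11* had the highest of the 10 log2 fold changes here, 1.11 (SE 0.64, adjusted p = 0.715), with an interval from -0.14 to 2.37. It was at 16.0, 4.60 and 5.12 CPM in WT and at 28.5, 20.7 and 6.37 CPM in the libraries labelled Prom1_KO. One WT library lay near the higher libraries, and the lowest library of the Prom1_KO group, the library 3 that stood apart, lay near the lower WT libraries. Without WT library 1 the log2 fold change was 1.93 and without Prom1_KO library 1 it was 0.65, with adjusted p from 0.435 to 0.994 over the 6 libraries left out in turn. *Cth* (0.38) and *Cbs* (0.44) were near 1 CPM in most libraries, with intervals from -0.43 to 1.19 and from -0.16 to 1.05. The ligase subunits were close between groups. *Gclc* was at 11.9 to 13.5 CPM in WT and 11.5 to 13.7 CPM in the other group (log2 fold change -0.03, interval -0.28 to 0.22), and *Gclm* at 10.4 to 12.8 CPM and 10.8 to 12.3 CPM (-0.02, interval -0.28 to 0.25). *Gsr*, at 5.33 to 6.33 CPM and 5.42 to 5.89 CPM, gave -0.05 (interval -0.31 to 0.22). For *Gclc*, *Gclm* and *Gsr* the interval in this bulk tissue lay below the log2 fold change seen in KO22. The tissue mixes RPE with other cells, so these intervals cannot leave out a change of that size in the RPE alone. For *Ggct* (0.25), *Gpx1* (0.08), *Gpx4* (-0.17) and *Gss* (0.00) the ranges also overlapped.

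**Figure D5:**
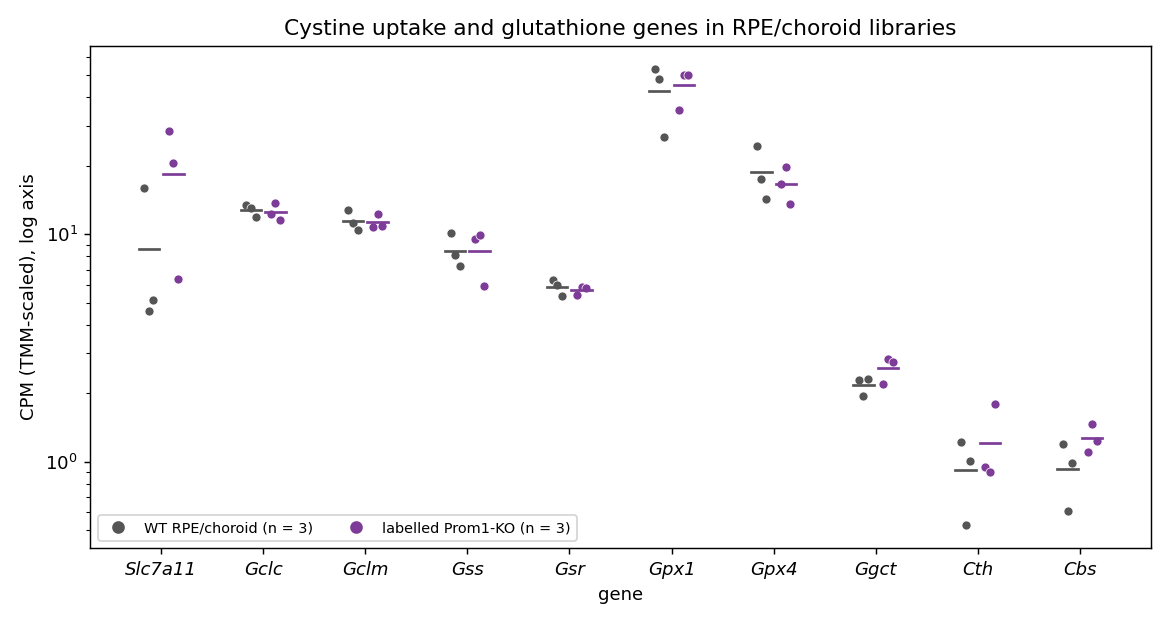
Level of each gene in each of the 6 RPE/choroid libraries, in TMM-scaled CPM on a log axis, with WT in grey, libraries labelled Prom1_KO in purple and bars at the group means. The groups overlap for all 10 genes, and *Slc7a11* is the most spread, from 4.60 to 28.5 CPM.

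The tissue differed in its cell markers between these groups. The 15 RPE markers summed to 2642 to 3607 CPM in WT and 1291 to 1469 CPM in the libraries labelled Prom1_KO. Of the 15, 4 passed both limits as lower, *Rpe65*, *Rgr*, *Lrat* and *Slc16a8*, by 6.06, 5.23, 3.43 and 2.98 on the log2 scale. The other 11 gave no call, and their means did not move together. From WT to the other group *Rlbp1* went from 46.6 to 11.1 CPM, *Krt8* from 11.6 to 11.2 CPM and *Dct* from 459 to 593 CPM. The 7 endothelial markers, with no call, summed to 98.7 to 200 CPM in WT and 66.6 to 88.3 CPM in the other group. The 14 photoreceptor markers summed to 103, 48.1 and 1299 CPM in WT and to 633, 167 and 26.4 CPM in the other group, in no order that follows the labels. For Mueller glia, 6 markers, with no call, summed to 776, 578 and 563 CPM in WT and to 783, 845 and 579 CPM in the other group. The libraries with the higher sums were also those with the higher *Slc7a11*. These markers did not move together: the means of *Slc1a3* (5.36 to 22.0 CPM) and *Aqp4* (6.35 to 17.7 CPM) were higher and that of *Rlbp1* lower. No RPE or photoreceptor marker was at 0 in any RPE/choroid library, and the part of these markers in the values of the 10 genes was not tested. None of the 9 pathway lists held a gene past both limits in RPE/choroid. *Gpx3* had a log2 fold change of 1.33 there (SE 0.24) with every Prom1_KO library above every WT library, an adjusted p of 0.126 with edgeR and of 4.61e-05 with DESeq2. *Nfe2l2* gave -0.07 (adjusted p = 0.941) and *Slc3a2* 0.14 (adjusted p = 0.902).

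Levels in the culture and tissue tables, which were scaled separately, can only be set side by side. Per kilobase of exon, WT mRPE and WT RPE/choroid stood at 22.0 and 2.04 CPM for *Gclc*, at 158 and 29.6 CPM for *Gpx1* and at 4.84 and 1.44 CPM for *Gclm*. For *Gpx4* the 2 levels were 13.1 and 10.9 CPM per kilobase, and for *Slc7a11* 0.204 and 0.553. Mitochondrially encoded genes took 64.9% to 69.1% of the counts in WT RPE/choroid and 17.6% to 21.6% in WT mRPE. A larger share lowers the CPM of all other genes, so the levels of the 2 tables are not on one scale. The part of this share in the difference of each gene was not tested, and no test was made across the tables.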

How the data were processed

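RNA-seq counts of 15 libraries were analysed. Per the labels and methods, the authors trimmed reads with Trim Galore 0.6.7, aligned them to mm39 with STAR and deposited raw counts per gene, from which low genes had been left out. The deposited normalized tables were not used. The kit is given as TruSeq stranded in the methods and as NEB stranded in the labels. Genes were matched by Ensembl ID to GENCODE M39 on GRCm39 (20737 of 20910 IDs in mRPE, 24826 of 25038 in RPE/choroid).

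Genes that reached 5 counts in 3 or more libraries of a fit were tested in R 4.3.3 with edgeR 4.0.16 (quasi-likelihood, TMM, Benjamini-Hochberg over all genes tested), with the library series as a term in mRPE. The limits for a call were those in the study's methods, 0.05 for the adjusted p and 1.2 for the size of the log2 fold change. For its plots of selected pathway genes the study used a lower fold limit. SE is the absolute log2 fold change over the square root of F. CPM are TMM-scaled within a table. No count of the 2 tables lies in a column outside the sample map.

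Alternatives were DESeq2 1.42.0 (test, and size factors), other count filters, no series term, no fold limit, other sets of libraries, subtraction of chromosome medians, other scaling in RPE/choroid, and each library left out in turn. The fits were also run on simulated counts with known changes put in, but with no series effect, chromosome shift or odd library. That run says nothing about how such features act on the fits. The members, lists and tests were chosen with earlier results of these data known. Named were the 10 members, *Prom1*, *Slc3a2*, *Gpx3*, *Nfe2l2*, *Keap1* and *Atf4*, up to 3 genes of each pathway list with the largest change past both limits in KO22, any past them in KO26 or RPE/choroid, and the 5 genes most like *Slc7a11*. *Ddit3* was added to these outside that rule. Intervals cover the spread between libraries only.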

Additional observations from a re-analysis of the deposited data

Results flagged for a closer look

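Among the 10 genes in the 4 WT mRPE libraries, *Slc7a11* had 1 library far from the others. The library of series 8995 was at 5.76 CPM, and its gap to the next library was 0.878 of the range of the group, over Dixon's 95% critical value. Chance passes about 1 in 20 groups of like libraries, 10 were looked at, and this was the only pass. That rate does not hold strictly here, because the 10 genes share the same 4 libraries. The flagged library is also the only WT library of its series, so an odd library and a difference between the series cannot be told apart. *Gpx1* (0.820) and *Cth* (0.802) came close with the same library.

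The lines KO22 and KO26 differed from each other in 7 of the 10 genes by the direct test (edgeR quasi-likelihood, adjusted p under 0.05). The log2 differences of KO22 from KO26 were 3.46 for *Slc7a11*, 3.13 for *Cth*, 2.30 for *Gsr*, 1.60 for *Ggct*, 1.51 for *Gclm*, 0.93 for *Gclc* and 0.72 for *Gpx1*. All KO22 libraries lay above both KO26 libraries for the first 6 of these, and for *Gpx1* they overlapped. The last 2 were the least stable. With each library left out in turn, the log2 difference ranged from 0.53 to 1.45 for *Gclc* and from 0.33 to 1.11 for *Gpx1*. In series 8995 *Gpx1* was at 314 CPM in KO22 and 316 CPM in KO26. At the adjusted p, 16.3% of all genes were higher in KO22 than in KO26.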

How the results depend on the processing

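In KO22 against WT, *Slc7a11*, *Cth*, *Gsr* and *Ggct* kept their direction and their call in every alternative run with a test, and 4 or 5 members were higher in each that kept the fold limit. With no fold limit 7 were, *Gclm* and *Gpx1* being added. The call of *Gclc* was lost in 5: its log2 fold change was 1.19 with filterByExpr, 1.04 in series 9262 alone and 0.99 less the chromosome median, and it fell to 1.02 and 1.05 without either series 8995 library. For KO26 the count of higher members was 1, and 2 with DESeq2's test and with WT and KO26 libraries alone. Over all genes, 250 of 20737 were higher in the main fit, 360 with DESeq2's test and 408 of 19877 with WT and KO26 alone. With each library left out the count of members ranged from 1 to 2, and was 2 without the series 8995 library of WT or of KO22. The counts over all genes were then 239 of 20522 and 471 of 20472. The gene added was *Cth* in each case. In KO22 against KO26 the count was 5, or 6 with *Gclc* without the KO26 library of series 9262, and 7 with *Gclc* and *Gpx1* with no fold limit, and in RPE/choroid it was 0 throughout.

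No called gene changed sign, and the cause of the sign changes below, all of genes with no call in that comparison, was not tested. Less the chromosome median, *Gss* was at -0.075 and *Gpx4* at 0.27 (from -0.27) in KO22 against WT, *Nfe2l2* at -0.074 in KO26 against WT, and *Gpx4* at 0.011 (from -0.53) and *Keap1* at -0.30 in KO22 against KO26. *Slc3a2* in KO22 was at -0.033 with filterByExpr. In KO26, *Gpx1* was at 0.0023 with no series term and *Cbs* at 0.041 with WT and KO26 alone. In RPE/choroid, *Gss* was at -0.0021 with DESeq2's size factors, -0.0011 with its test and -0.010 when scaled without photoreceptor and mitochondrial genes.

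With each library left out in turn, log2 fold changes in KO22 against WT ranged from -0.019 to 0.079 for *Slc3a2* and from -0.075 to 0.20 for *Gss*. In KO26 against WT the ranges were -0.10 to 0.089 for *Nfe2l2*, -0.27 to 0.20 for *Cbs*, -0.029 to 0.70 for *Gsr*, -0.20 to 0.73 for *Gclc* and -0.56 to 0.19 for *Gpx1*, and in KO22 against KO26 -0.22 to 0.27 for *Keap1*. In RPE/choroid they were -0.11 to 0.0074 for *Gclc*, -0.080 to 0.073 for *Gclm*, -0.11 to 0.0092 for *Gsr*, -0.34 to 0.066 for *Gpx4*, -0.13 to 0.19 for *Gss*, -0.17 to 0.27 for *Gpx1*, -0.0038 to 0.64 for *Cth* and -0.15 to 0.011 for *Nfe2l2*.

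The limits are these. KO26 has 2 libraries, and where 1 is left out the other is assumed to vary like the other lines. With all libraries KO26 gave 250 higher and 149 lower genes, and without the series term 123 and 71. *Cth* in WT and *Cbs* rest on few counts. Whether KO22 and KO26 differ through the edit or through being separate lines cannot be told apart. No paired analysis was possible because the labels give no replicate numbers shared between groups, so the numbers used name libraries in accession order.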
